A study of Mus musculus with 4 samples.

Results

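The genes of the proteasome were followed through 4 RNA-seq libraries of mouse splenic T cells, and most subunits of the standard particle were higher after an allogeneic transplant than at it. Members were the genes whose symbol begins with Psm, a letter from a to g and a digit, which gave 49 of the 21705 genes listed. By role they were 14 subunits of the standard core, 3 inducible catalytic subunits of the immunoproteasome, 17 subunits of the regulatory particle, 4 activators, 7 assembly factors, 1 inhibitor, 2 tissue-specific core subunits and 1 gene that encodes no subunit (Psmc3ip). Of the 49, 47 had a mean value over the libraries of at least 73.3, or 5 ppm of an average library, and are called measured. The 2 others were the tissue-specific subunits of testis and thymus.

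The proteasome degrades proteins that carry ubiquitin chains. Its core is a barrel of alpha and beta rings, and protein is cut inside by the beta1, beta2 and beta5 subunits. A regulatory particle binds the end of the barrel: its lid removes ubiquitin, and its base, with a ring of ATPases, unfolds the substrate and feeds it in. Interferon gamma induces alternative catalytic subunits, which replace the standard ones in newly assembled cores to form the immunoproteasome, and it also induces the activator PA28 alpha and beta. Lymphocytes express the immunoproteasome without stimulation. Peptides made by the proteasome are loaded on class I histocompatibility molecules.

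The series concerns AhR in T cells, induced regulatory T cells of the gut and acute graft-versus-host disease, in which transplanted T cells attack the host. Splenic T cells of strain C57bl/6 were flow sorted as CD4 and as CD8 cells, on the day of an allogeneic transplant or later, and no deletion, other genotype or drug is named for any group. Each of the 4 groups held 1 library, with 5 mice pooled ahead of sorting. Samples taken after transplant are given as day 14 in their characteristics and as day 12 in their titles, and the labels do not say whether they hold donor cells alone. The source field names innate lymphoid cells and the cell type field T cells. With 1 library per group no difference had a replicate check, no p-value was computed, and the 95% intervals below cover counting error only. Values are the deposited ones, estimated reads per gene scaled to place the upper quartile of non-zero genes near 1000 in each library. The 4 values of a gene are always given in the order CD4 at, CD4 after, CD8 at and CD8 after transplant. Log2 ratios were taken after adding 14.7 (1 ppm) to each value, while ratios with an interval carry no such addition. In bulk libraries, fewer cells of a type and less RNA per cell cannot be told apart.

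Depth was 9873860 to 23633566 estimated reads per library, and the members held 0.424, 0.660, 0.440 and 0.699% of the summed values. Cd3e, part of the antigen receptor of T cells, was high in every library (5272, 4272, 5330.2 and 4807), and Cd4 and Cd8a followed the labels. The libraries also differed in genes that other cells or cycling cells express, and the part of these in the results below was not tested. All 8 cycling-cell genes were at least 2-fold higher after transplant in both cell types, with a summed value of 2034, 31706, 1542 and 32974. The 6 macrophage and monocyte genes summed to 6158, 3907, 1175 and 3935, the 6 dendritic cell genes to 845, 405, 354 and 1499, the 4 NK cell genes to 983, 773, 1726 and 2036, the 4 neutrophil genes to 10964, 19387, 2009 and 16329, the 5 erythroid genes to 524, 2968, 118 and 2406 and the 5 B cell genes to 114, 36.8, 318 and 53.6. Eomes, which T cells also express, made up most of the NK cell sum in all libraries but CD4 at transplant, and without it the 3 others summed to 687, 86.2, 112 and 178. Among NK cell receptors, Ncr1 was at 0 in CD4 after transplant and Klra8 in both later libraries. The dendritic cell genes did not move together: Itgax was at 579, 136, 195 and 1119, Xcr1 at 36.2, 159, 66.9 and 245, and Flt3 at 168, 24.5, 52.9 and 49.4. Siglech of plasmacytoid dendritic cells was at 0 in CD8 after transplant. Of the B cell genes, Ms4a1 was at 0 in CD8 after transplant and Pax5 in all libraries but CD4 after transplant. No macrophage, neutrophil or erythroid gene measured here was at 0.

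All 14 subunits of the standard core and all 17 of the regulatory particle had a log2 ratio above 0 after transplant in both cell types, against 45.9% of the 9933 measured genes in CD4 and 51.0% in CD8. The size was moderate. The median log2 ratio of the 47 measured members was 0.47 in CD4 and 0.61 in CD8, against -0.08 and 0.02 over all measured genes. At least 2-fold higher were 3 of 47 members in CD4, with 12.1% of all genes past that size, and 7 of 47 in CD8, with 15.0% of all genes. No member was 2-fold lower, against 10.8% and 11.0% of all genes. The share of members past 2-fold was therefore below the background in CD4 and about equal to it in CD8. At 1.5-fold, 17 members were higher in CD4 and 24 in CD8, with 20.2% and 24.9% of all genes higher by that much, and 0 were lower, with 22.9% and 21.6% of all genes. Most differences exceeded counting error, here as among all genes. The counting interval lay wholly above 1 for 38 members in CD4 and 40 in CD8, against 38.4% and 42.3% of all genes, and wholly below 1 for 2 members in each, against 46.5% and 39.9%.

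**Figure D1:**
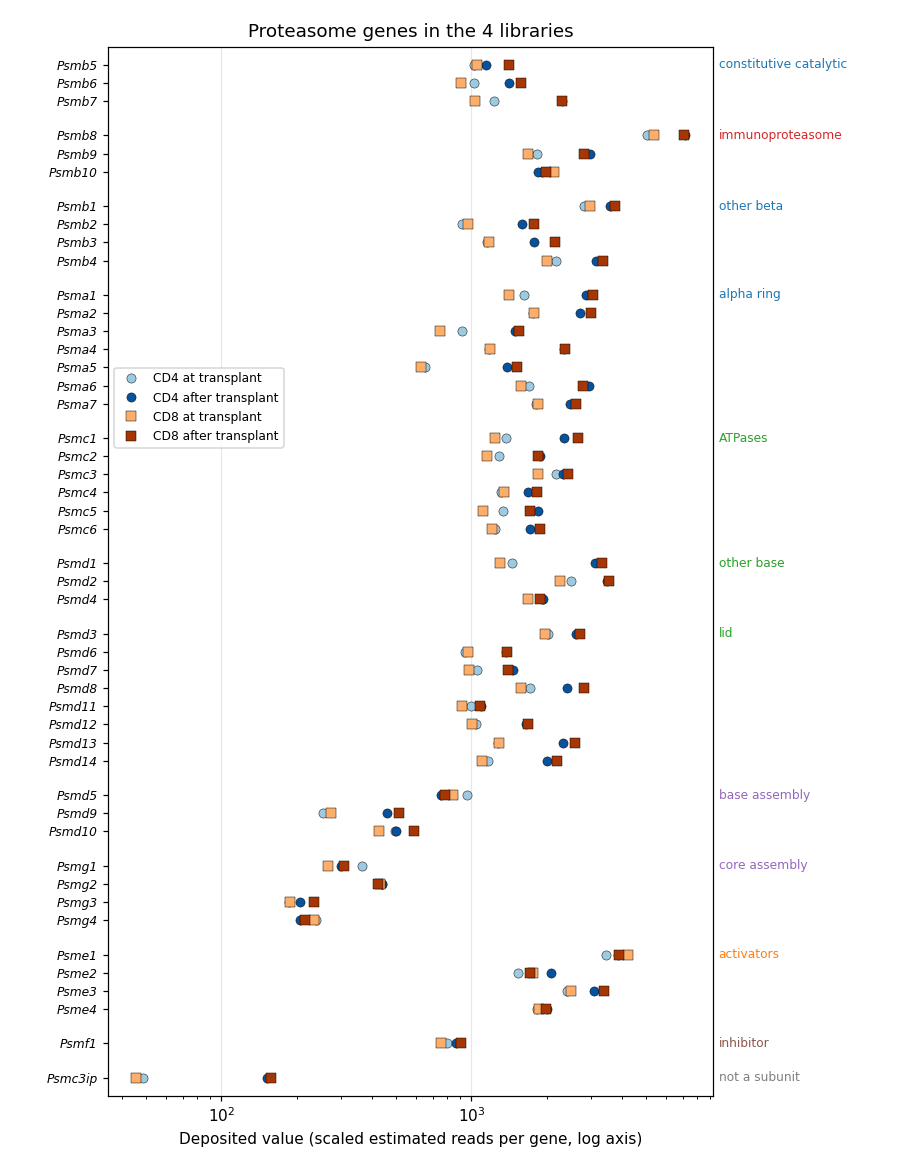
Deposited value (log axis) of each of the 47 measured proteasome genes in the 4 libraries, grouped by role, with 1 point per library. In 31 of 31 core and regulatory subunits both dark points (after transplant) lie to the right of the light points of the same cell type, while Psmb10, Psme4 and Psmg2 show little separation.

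**Figure D2:**
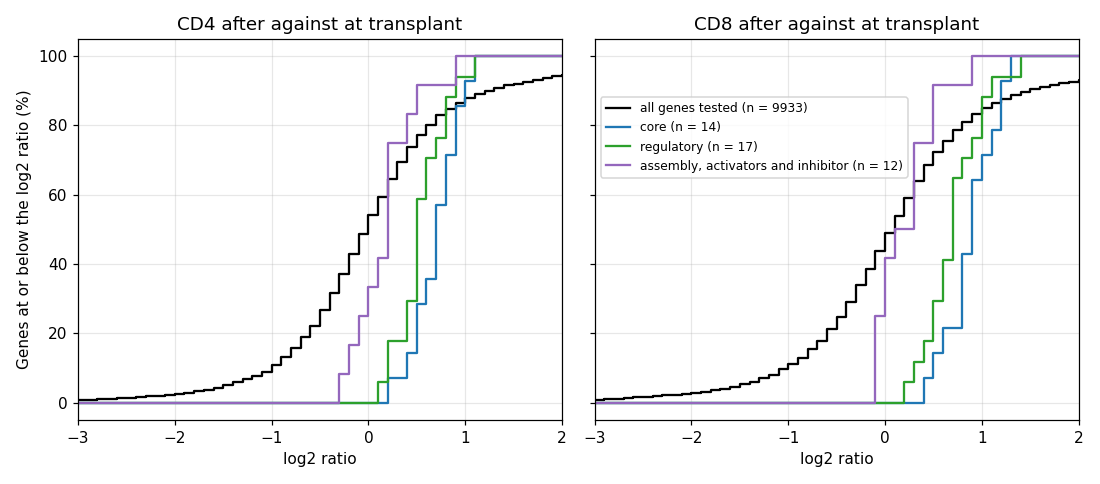
Share of genes (%) at or below each log2 ratio of after against at transplant, for CD4 (left) and CD8 (right), with all 9933 measured genes in black. The 14 core and 17 regulatory subunits lie wholly above 0 and mostly below 1, while all genes spread to both sides.

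The alpha ring, the outer ring through which substrates enter the core, had the largest median difference of the subunit groups. Its 7 genes had a median log2 ratio of 0.78 in CD4 and 0.99 in CD8, with lowest values of 0.45 and 0.51. Psma5 was listed at 653, 1393, 626 and 1515, 2.13 times as high after transplant in CD4 (1.97 to 2.31) and 2.42 times in CD8 (2.203 to 2.66). Both later libraries were well above both libraries at transplant, which lay close together. Psma1 was at 1621, 2871, 1407 and 3069, with log2 ratios of 0.82 and 1.12. Psma4 was at 1175, 2354, 1183 and 2361, a ratio of 2.004 in CD4 (1.89 to 2.13) and 1.996 in CD8 (1.86 to 2.14), and its log2 ratio of 0.99 in each put it just short of 2-fold. Psma3 was at 918, 1497, 752 and 1544 and was past 2-fold in CD8 alone, with log2 ratios of 0.70 and 1.02; the difference between the cell types was not tested. Psma7 had the smallest ratios of the ring, 1.37 (1.30 to 1.44) and 1.43 (1.34 to 1.52). Psma2 and Psma6 lay between, at log2 ratios of 0.62 and 0.78 in CD4 and 0.75 and 0.81 in CD8.

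Among the 4 beta subunits without catalytic activity the median log2 ratio was 0.57 in CD4 and 0.80 in CD8. Psmb2 was at 914, 1595, 968 and 1774, and Psmb3 at 1158, 1772, 1173 and 2157. For both, the later libraries were apart from the libraries at transplant in either cell type. Psmb4 had log2 ratios of 0.53 and 0.74. Psmb1, at 2817, 3570.5, 2986 and 3753, had the smallest ratios of the 4, 1.27 (1.21 to 1.32) and 1.26 (1.195 to 1.32).

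The catalytic subunits of the standard core were unequal. Psmb7, the trypsin-like beta2 subunit, was at 1236, 2297, 1032 and 2309, a ratio of 1.86 in CD4 (1.75 to 1.97) and 2.24 in CD8 (2.08 to 2.41). Psmb6, the caspase-like beta1 subunit, was at 1026, 1413, 912 and 1578, with ratios of 1.38 (1.28 to 1.48) and 1.73 (1.59 to 1.88). Psmb5, the chymotrypsin-like beta5 subunit and the main target of the drug bortezomib, was at 1028, 1149, 1055 and 1408, with ratios of 1.12 (1.04 to 1.203) and 1.33 (1.23 to 1.45). The order beta2, beta1, beta5 held in both cell types, and the intervals of neighbours in it did not overlap.

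The 3 immunoproteasome subunits did not move as a block. Psmb8, the inducible beta5 subunit, had the highest deposited value of any member, at 5034, 7154, 5387 and 7111. It was 1.42 times as high after transplant in CD4 (1.38 to 1.47) and 1.32 times in CD8 (1.27 to 1.37). Psmb9, the inducible beta1 subunit, was at 1826, 2971, 1684 and 2832, with ratios of 1.63 (1.55 to 1.71) and 1.68 (1.58 to 1.79). In both genes each later library was above both libraries at transplant. Psmb10, the inducible beta2 subunit, was at 1913, 1840.0, 2146 and 1979, with ratios of 0.962 (0.909 to 1.02) and 0.922 (0.863 to 0.984). The Psmb10 value in CD8 after transplant lay between the values of the libraries at transplant, and its log2 ratio in CD4, -0.06, turned positive with equal library totals (0.09) and under median of ratios scaling (0.01). In the RefSeq annotation Psmb8 and Psmb9 stand on chromosome 17 on either side of Tap1, which encodes a chain of the peptide transporter, whereas Psmb10 stands on chromosome 8. Tap1 was at 6090.4, 10345, 5692 and 8894, with log2 ratios of 0.76 and 0.64, beside 0.70 and 0.74 for Psmb9. Tap2, the other chain and the gene next to Psmb8 on its far side, had 0.30 and 0.07.

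Set against the standard subunit of the same position, which does not depend on the scaling between libraries, beta2 stood apart from beta1 and beta5. The ratio of Psmb10 to Psmb7 after transplant was 0.518 times that at transplant in CD4 (0.477 to 0.562) and 0.412 times in CD8 (0.373 to 0.455). The ratio of Psmb8 to Psmb5 was 1.27 times that at transplant in CD4 (1.17 to 1.38) and 0.989 times in CD8 (0.902 to 1.08). The ratio of Psmb9 to Psmb6 was 1.18 times that at transplant in CD4 (1.08 to 1.29) and 0.972 times in CD8 (0.875 to 1.08). So in CD4 the beta1 and beta5 pairs leaned to the inducible subunit by more than counting error, in CD8 their intervals held 1, and in both cell types the beta2 pair leaned to the standard subunit. As a group, the median log2 ratio of the 3 immunoproteasome subunits minus that of the 3 standard catalytic subunits was 0.05 in CD4 and -0.38 in CD8, a pair of medians that hides the difference between positions.

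Levels of partner genes were compared per kb of the longest principal transcript in GENCODE M21. Psmb8 stood 2.70, 3.44, 2.82 and 2.79 times as high as Psmb5, and Psmb9 1.05, 1.24, 1.09 and 1.06 times as high as Psmb6. Psmb10 stood 1.37 times as high as Psmb7 in CD4 at transplant and 1.84 times in CD8, but 0.709 and 0.758 times after it, so that the more abundant transcript of the beta2 pair switched in both cell types. Per kb of coding sequence, an alternative chosen after the values were seen, the Psmb8 ratios became 4.69, 5.96, 4.89 and 4.83, the Psmb9 ratios 1.93, 2.28, 2.01 and 1.95, and the Psmb10 ratios 1.57, 0.813, 2.11 and 0.870. The switch at beta2 was present with either length, and the near-equal levels at beta1 were not.

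**Figure D3:**
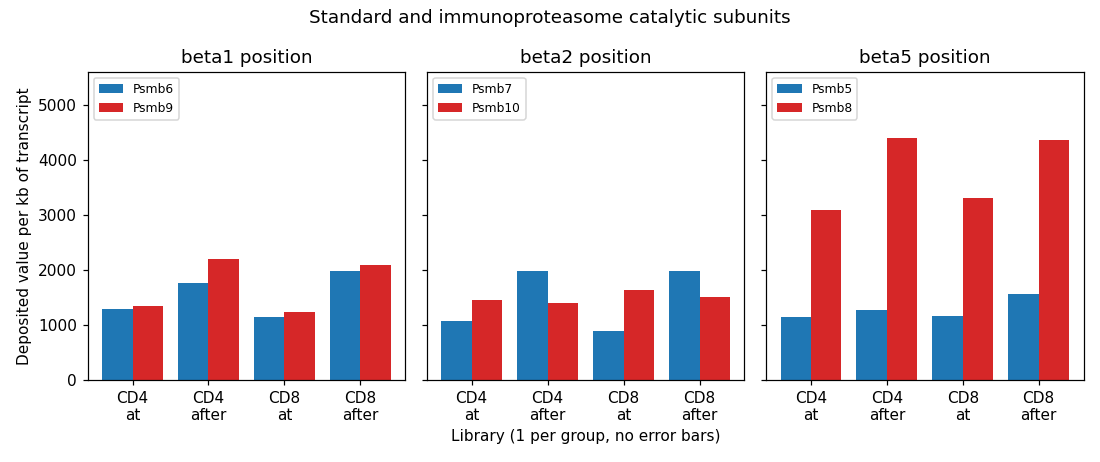
Deposited value per kb of transcript for the standard (blue) and inducible (red) catalytic subunit at the beta1, beta2 and beta5 positions, 1 bar per library with no error bars because each group holds 1 library. The inducible subunit is above the standard one at beta5 in all 4 libraries, and at beta2 only in the libraries at transplant.

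Subunits of the regulatory particle had a median log2 ratio of 0.48 in CD4 and 0.63 in CD8. Within its base, Psmd1, a large scaffold subunit, had the highest log2 ratios of all subunits (1.09 and 1.34), at 1456, 3118, 1302 and 3316, or 2.14 times (2.03 to 2.26) and 2.55 times (2.39 to 2.72) as high after transplant. Psmd2, the other large scaffold, was at 2497, 3472, 2268 and 3559, with log2 ratios of 0.47 and 0.65. Psmd4, a ubiquitin receptor of the base, was at 1918, 1926, 1687 and 1876, and its CD4 ratio of 1.004 (0.950 to 1.06) was the one among the 31 core and regulatory subunits whose interval held 1. Of the 6 ATPases, Psmc1 was farthest from even, at 1376, 2348, 1238 and 2670.0, with log2 ratios of 0.76 and 1.0997. Psmc3 had the smallest CD4 ratio of the ring, 1.07 (1.02 to 1.13), at 2170.0, 2329, 1852 and 2444. The other 4 ATPases, Psmc2, Psmc4, Psmc5 and Psmc6, ranged from 0.36 to 0.54 in CD4 and from 0.44 to 0.68 in CD8 on the log2 scale.

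The 8 subunits of the lid had a median log2 ratio of 0.51 in CD4 and 0.63 in CD8. Psmd14, the enzyme that removes the ubiquitin chain, was at 1167, 2011, 1102 and 2192, a ratio of 1.72 (1.62 to 1.84) in CD4 and 1.99 (1.85 to 2.14) in CD8. Psmd13, a structural subunit, was at 1278, 2313, 1292 and 2587, and its CD8 log2 ratio of 0.99 was just short of 2-fold, as was that of Psmd14 (0.98). In both genes the values of the 2 cell types nearly coincided at transplant. Psmd11, a lid subunit known in human stem cells to promote assembly of the particle, had the smallest ratios of the lid, 1.101 (1.02 to 1.19) and 1.18 (1.07 to 1.29), at 992, 1092, 920.0 and 1085. The log2 ratios of Psmd3, Psmd6, Psmd7, Psmd8 and Psmd12 ranged from 0.37 to 0.65 in CD4 and from 0.47 to 0.84 in CD8.

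The dedicated assembly factors were mixed, with a share above 0 near that of all genes. Of the 7, 3 had a log2 ratio above 0 in CD4, where 45.9% of all genes did, and 4 in CD8, where 51.0% did. Their medians were -0.01 and 0.21. The counting interval lay above 1 for 1 and below 1 for 2 of them in CD4, and above 1 for 3 and below 1 for 0 in CD8. Over all genes 38.4% lay above and 46.5% below 1 in CD4, and 42.3% and 39.9% in CD8. The CD4 count became 4 under 3 of the 4 other scalings and the CD8 count 5 with equal library totals. Psmg1 and Psmg2, which pair to build the alpha ring, were at 366, 299.8, 266 and 310.3 and at 440.2, 438, 431 and 422. Psmg1 was lower after transplant in CD4, at 0.819 times (0.714 to 0.939), while its CD8 interval held 1 (0.978 to 1.39). Psmg3 and Psmg4, the other pair, lay between 187 and 239.7 in the 4 libraries. Psmg3 had ratios of 1.11 in CD4 (0.929 to 1.32) and 1.25 in CD8 (1.02 to 1.53). Psmg4 had 0.863 (0.729 to 1.02) and 0.923 (0.753 to 1.13). Psmd5, a chaperone of the ATPase ring, was at 964, 755, 847 and 787, 0.783 times as high after transplant in CD4 (0.719 to 0.852) and 0.930 times in CD8 (0.837 to 1.03). Psmd9, another base chaperone, was the exception, at 255, 458, 275 and 515, with ratios of 1.798 (1.57 to 2.06) and 1.87 (1.61 to 2.18). Psmd10, the base chaperone also called gankyrin, was at 495, 501, 427 and 589.6, with an interval that held 1 in CD4 (0.906 to 1.13) and one above 1 in CD8 (1.21 to 1.57).

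Activators bind the ends of the core in place of the regulatory particle. Psme1 and Psme2, the alpha and beta subunits of the interferon-induced PA28, were at 3448, 3861, 4238 and 3894 and at 1533, 2074, 1758 and 1708. For Psme1 the ratio was 1.12 in CD4 (1.08 to 1.17) and 0.919 in CD8 (0.877 to 0.963), and for Psme2 1.35 (1.28 to 1.43) and 0.971 (0.905 to 1.04). A close copy of Psme2 in the mouse genome, Psme2b, was not among the genes listed, though its symbol fits the rule for members. How reads of the 2 were assigned is not known. Psme3, the nuclear PA28 gamma subunit, which interferon does not induce, was at 2402, 3101, 2492 and 3396, with log2 ratios of 0.37 and 0.44. Against Psme3, Psme1 was 0.868 times (0.816 to 0.923) its level at transplant in CD4 and 0.674 times (0.628 to 0.724) in CD8, and Psme2 1.05 times (0.973 to 1.13) and 0.713 times (0.652 to 0.780). Psme4, the large nuclear activator PA200, stayed between 1833 and 1997. Psmf1, an inhibitor of the core in vitro, was at 800.1, 866, 756 and 908, with log2 ratios of 0.11 and 0.26.

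Between cell types the members lay close together. At transplant the log2 ratio of CD4 to CD8 ranged from -0.30 (Psme1) to 0.44 (Psmg1) with a median of 0.06, against 0.14 for all measured genes, and after transplant from -0.29 (Psmb5) to 0.28 (Psme2) with a median of -0.07, against 0.03. No member was 2-fold apart in either comparison, while 4.92% and 1.48% of all genes were at least 2-fold higher and lower in CD4 at transplant and 2.42% and 0.956% after it. The sign of the median at transplant depended on the scaling, becoming -0.10 and -0.12 under trimmed mean of M-values and median of ratios.

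Members with a large ratio in CD4 also had a large one in CD8, with Pearson's r of 0.91 and Spearman's rho of 0.92 over 47 genes. This is a description across genes that share the same 4 libraries, and over all 9933 genes the values were 0.89 and 0.88. On the deposited scale the CD8 ratio was the larger in 38 of 47 members (80.9%), against 62.8% of all measured genes. The median difference was 0.14, beside 0.09 over all measured genes. Lowest in this order were Psme2 (-0.47), Psme1 (-0.28), Psmb8 (-0.11) and Psmb10 (-0.06), 4 of the 5 interferon-induced members, and the fifth, Psmb9, stood at 0.05. Highest were Psmg1 (0.49) and Psmd10 (0.44). Another scaling shifts all these differences by nearly the same amount, so it moves the 0 line and hardly the order. Trimmed mean of M-values shifted the median of all genes by 0.04 in CD4 and -0.09 in CD8, and median of ratios by 0.06 and -0.08. Equal library totals shifted the median of all genes by 0.15 and 0.09. Each of these scalings lowers the CD8 minus CD4 differences, so the count of 38 would be smaller under them. On the deposited scale the median was 0.66 in CD4 and 0.84 in CD8 for the core, and 0.48 and 0.63 for the regulatory subunits. Under median of ratios these medians nearly met, at 0.72 and 0.76 for the core and 0.54 and 0.54 for the regulatory subunits.

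**Figure D4:**
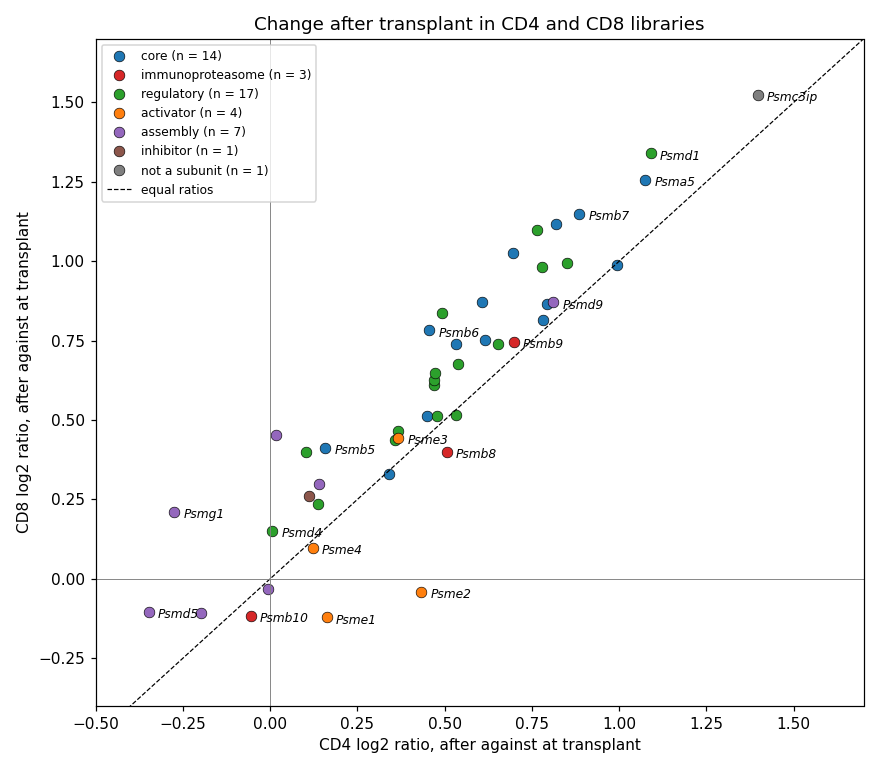
Log2 ratio of after against at transplant in CD4 (horizontal) and CD8 (vertical) for the 47 measured members, coloured by role, with a dashed line of equal ratios. On the deposited scale, shown here, most points lie above the line, and Psme2 (0.43 and -0.04) and Psme1 (0.16 and -0.12) lie farthest below it.

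**Figure D5:**
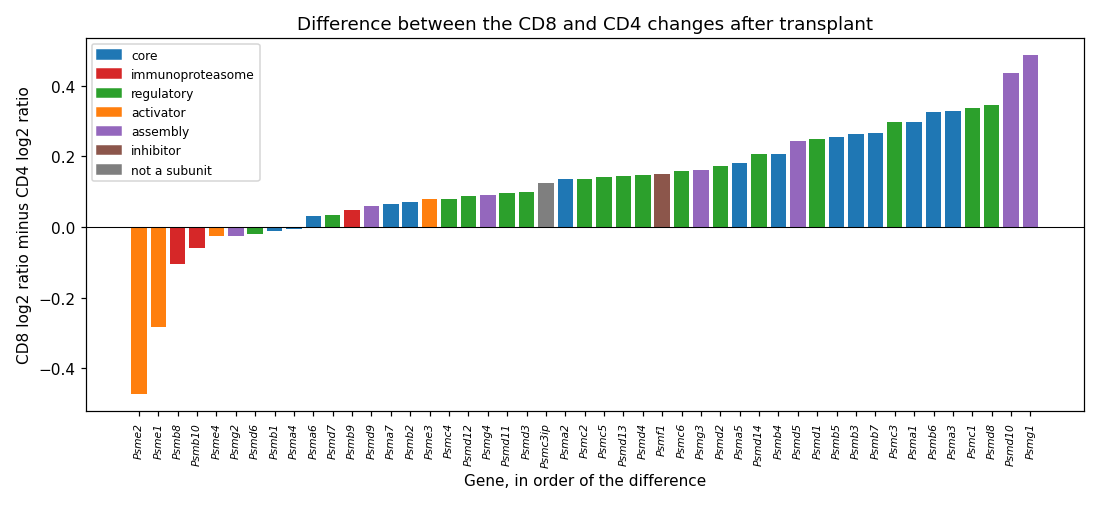
Difference of the CD8 and CD4 log2 ratios for each measured member, in order, coloured by role, with no error bars because each group holds 1 library. The bars run from -0.47 (Psme2) to 0.49 (Psmg1), with PA28 alpha and beta, Psmb8 and Psmb10 at the low end.

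Promoter sequence was compared for the 41 members with a window in the RefSeq table (build GRCm38.p6, 250 bases before to 50 after the start), 40 of them measured, against 8000 measured genes. A gene counted as holding a motif if any of its windows did. The 41 members had 44 windows and the 8000 genes 10160, so extra windows raise the shares of all genes more than those of the members. Of 7 motifs searched on both strands, the ETS core CCGGAAG was in 15 of 40 measured members (37.5%) and in 23.4% of genes, and the interferon response element (GAAA, any 2 bases, GAAA) in 5 of 40 (12.5%) and 3.91%. The other shares were close to or below those of all genes: the antioxidant response element core TGACNNNGC, the kind of site that NFE2L1 uses at subunit genes, 15.0% against 17.3%, the CCAAT box CCAAT 35.0% against 43.3%, the interferon gamma activated site TTCNNNGAA 7.50% against 8.34%, the NRF1 site (GCGC, any 2 bases, GCGC) 17.5% against 16.8%, and the cyclic AMP response element TGACGTCA 0 of 40 against 3.85%. The median GC content was 58.2% for the members' windows and 61% for those of all genes. The interferon response element was in the windows of Psmb3, Psmd4, Psmd9, Psme1 and Psmg4, of which Psme1 alone is interferon-induced by background knowledge. The following stretches before the start are shown to set windows that hold the antioxidant response element core (Psmb5 and Psmb6 of the standard core and the chaperone Psmd9) beside windows with none of the 7 motifs, from Psma5, among the subunits with the largest ratios, and from Psmb10, the inducible subunit that was not higher after transplant. Each lies outside annotated exons, and capitals mark that element, which the Psma5 and Psmb10 stretches lack.
Psmb5 (chr14:54618023-54618142, minus strand): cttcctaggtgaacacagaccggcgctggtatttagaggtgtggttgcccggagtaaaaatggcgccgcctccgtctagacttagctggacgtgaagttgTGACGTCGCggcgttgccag
Psmb6 (chr11:70525237-70525356, plus strand): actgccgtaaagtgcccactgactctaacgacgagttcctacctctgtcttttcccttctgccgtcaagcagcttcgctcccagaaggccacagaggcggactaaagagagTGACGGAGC
Psmd9 (chr5:123228070-123228189, plus strand): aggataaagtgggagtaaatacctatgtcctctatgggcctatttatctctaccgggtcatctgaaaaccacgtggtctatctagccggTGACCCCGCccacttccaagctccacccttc
Psma5 (chr3:108256758-108256877, plus strand): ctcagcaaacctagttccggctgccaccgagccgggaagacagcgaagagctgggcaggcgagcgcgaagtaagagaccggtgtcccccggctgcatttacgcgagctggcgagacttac
Psmb10 (chr8:105938445-105938564, minus strand): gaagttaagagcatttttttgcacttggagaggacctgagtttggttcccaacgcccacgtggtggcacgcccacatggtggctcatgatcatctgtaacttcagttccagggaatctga
Over the 6 members that hold the element anywhere in their window (Psmb5, Psmb6, Psmc6, Psmd9, Psmd12 and Psme4), log2 ratios ran from 0.12 (Psme4) to 0.81 (Psmd9) in CD4 and from 0.10 (Psme4) to 0.87 (Psmd9) in CD8. Over the members whose windows hold none of the 7 motifs, log2 ratios ran from -0.35 (Psmd5) to 1.09 (Psmd1) in CD4. In CD8 they ran from -0.12 (Psmb10) to 1.34 (Psmd1). What the element does in these cells was not tested.

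Psmc3ip, which matches the symbols but encodes HOP2, a partner of recombinases in DNA repair and meiosis, had the largest ratio of all matches. It was at 48.5, 152, 45.4 and 158 (73, 173, 55 and 112 reads), with ratios of 3.13 (2.37 to 4.17) and 3.48 (2.50 to 4.89). It was under 73.3 in both libraries at transplant and so counted as measured through the later libraries alone. Without it, 2 of 46 members in CD4 and 6 of 46 in CD8 were at least 2-fold higher. The tissue-specific subunits were near the detection floor: Psma8, the alpha subunit of testis, had 2, 3, 0 and 0 reads, where 0 reads allow up to 3, and Psmb11, the beta5 subunit of the thymus cortex, had 14, 4, 5 and 6.

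Genes that work with the proteasome but are not named Psm were given from a list, and were mixed. The list counts here and in the next paragraph stand beside the same shares of all genes. These were 12.1% at least 2-fold higher and 10.8% lower in CD4, and 15.0% and 11.0% in CD8. Of 16 measured cofactors, 0 were 2-fold higher and 0 lower in CD4, and 2 were higher in CD8, with medians of 0.05 and 0.33. Both were enzymes that trim ubiquitin on the regulatory particle, Usp14 (809.7, 1210.2, 679 and 1418) and Uchl5 (639, 998, 573 and 1224). Pomp, the maturation protein of the core, was at 1381, 2505, 1429 and 2453, with log2 ratios of 0.85 and 0.77. Ubqln2, a shuttle that brings ubiquitinated proteins to the particle, was lower at -0.99 and -0.47. Among genes of ubiquitin and its activation, Rps27a, which encodes ubiquitin fused to a ribosomal protein, was at 12821, 6870.0, 14534 and 7164, with log2 ratios of -0.90 and -1.02. The polyubiquitin gene Ubb was at log2 ratios of 0.04 and 0.07.

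Of 7 genes of substrate extraction and subunit gene control, 1 was 2-fold lower in each cell type and 0 higher. This was Nfe2l2, the gene of the antioxidant factor NRF2, at 1556, 465, 1126 and 417. Nfe2l1, which encodes the factor that induces subunit genes when proteasome activity falls, was at log2 ratios of -0.16 and -0.25. Vcp, the ATPase that extracts substrates for the proteasome, was at 4027, 6071, 3782 and 5883, with 0.59 and 0.64, and its cofactor Nploc4 at 0.56 and 0.61. Among 12 interferon regulators of immunoproteasome genes, 3 were higher and 2 lower in CD4, and 2 and 2 in CD8. Ifng itself was at 61.1, 2072, 24.0 and 2039. Ifngr2, the signalling chain of its receptor, was at 1086, 49.97, 559 and 38.1, while Ifngr1, the binding chain, was at 2810.1, 6779.8, 4394 and 7214. Irf8, an interferon regulatory factor, had log2 ratios of 1.37 and 2.73, and Jak1, a kinase of the receptor, -1.01 and -1.09. Irf1, a factor that induces immunoproteasome genes, was at -0.18 and -0.27. Of 10 genes of peptide supply for class I, 2 passed 2-fold upward and 0 downward in either cell type, the cytosolic peptidases Thop1 (1.48 and 1.22) and Blmh (1.30 and 1.06). Lap3, an interferon-induced aminopeptidase that trims proteasome products, was at 0.96 and 0.86.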

How the data were processed

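RNA was measured in 4 libraries, 1 for each of CD4 and CD8 splenic T cells at and after transplant. Per the labels' protocols, RNA of pooled mice was extracted with an RNeasy kit and libraries were made with TruSeq. The deposited values are a signal, estimated reads scaled by the authors to an upper quartile near 1000. The submitters' processing notes name RSEM 1.1.13, SAMtools 1.2 and, as the build, mm9; the aligner and annotation are not given in the sources used here. One read was worth 0.664, 0.877, 0.826 and 1.41, and 86.4 to 87.7% of the values above 0 were within 0.1 of a whole number of reads, so no count test was run.

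Ratios were computed with Python 3.11.15, numpy 2.4.6, scipy 1.17.1 and pandas 2.3.3. The filter kept genes whose mean value reached 73.3 (5 ppm of an average library), and a gene was called at 2-fold on log2(value + 14.7). Intervals are exact conditional binomial ones at 95% on rounded reads, and those of ratios of ratios are exact conditional odds ratios. Levels between genes used transcript lengths of GENCODE M21, and promoters came from RefSeq (GRCm38.p6), with 8 members not matched. Alternatives were 4 other scalings, pseudocounts 4 times smaller and larger, no filter or one at 20 ppm, and calls at 1.5-fold or by the interval. Leaving out Psmc3ip was a further alternative that was not planned. The procedure was tested on simulated reads that varied by counting error alone, so the simulation could not test variation between replicate libraries. All members were described; of other lists, up to 4 genes with the largest ratios were to be named, and further ones named (Pomp, Ubb, Nfe2l1, Jak1, Irf1, Tap2) were chosen after their values were seen, as were the motifs. The members and lists were chosen with earlier results of these data known. Some genes of the lists are not reported here.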

Additional observations from a re-analysis of the deposited data

Results flagged for a closer look

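Psme1, the alpha subunit of PA28, was the one measured member whose change after transplant had opposite directions in CD4 and CD8 with both counting intervals off 1. Its log2 ratio was 0.16 in CD4 and -0.12 in CD8, a difference of -0.28. The difference was not tested, since each group holds 1 library. The opposite signs were present under all 4 other scalings, with CD8 values from -0.22 to -0.03 and CD4 values from 0.16 to 0.31. With equal library totals, however, the CD8 ratio was 0.979 with an interval (0.935 to 1.03) that held 1, so there the opposite direction in CD8 was within counting error. The intervals under the scalings were computed after seeing the data.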

How the results depend on the processing

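Main counts and medians were set against their values under other settings in 160 comparisons. Of these, 154 stayed within 1.5 times (counts) or within a tolerance set for medians and their differences. That tolerance was the counting error of 1 gene, the member nearest the median of the 47, and not the error of a median itself. Leaving out Psmc3ip, a setting that was not planned, made up 16 of the 160. Many of the 160 comparisons had little room to move. The counts of members 2-fold lower after transplant, or 2-fold apart between cell types, were 0 under every setting. Upper quartile scaling, with factors of 0.999 to 1.001, nearly repeated the deposited scale. Differences between immunoproteasome and standard catalytic medians hardly depend on scaling. No main median was past 2-fold, so a change of sign past that size could not be tested. With equal library totals the CD4 count of members at least 2-fold higher went from 3 to 5 and the CD4 median from 0.47 to 0.62; that scaling moved the median of all genes by 0.15. Calls at 1.5-fold gave 17 in CD4 and 24 in CD8. The median of CD4 against CD8 at transplant, 0.06, became -0.10 under trimmed mean of M-values and -0.12 under median of ratios, which moved all genes by -0.16 and -0.18. Core and regulatory subunits were above 0 in 31 of 31 under every scaling; Psmb10 and Psmg2 in CD4 and Psme2, Psme4 and Psmg2 in CD8 changed sign. No paired analysis was possible because each group holds 1 library, and none could be left out. Depth limits genes with few reads most, such as Psmc3ip.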
